A study of Mus musculus with 4 samples.

Results

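Integrins are the receptors that hold cells to the extracellular matrix, and focal adhesions are the protein plaques that join them to actin. The genes described here are 34 of the 25793 gene symbols in the deposited tables, taken by name: 25 integrin subunits and 9 genes of the focal adhesion plaque. All 34 symbols were found. They were followed in bulk RNA sequencing of 4 mouse liver libraries. The labels give tumours 1 and 2 as liver tumours of the genotype beta-2SP+/- ; SMAD3+/-, which lacks 1 copy each of the SMAD adaptor β2-spectrin and of SMAD3. Another library is labelled normal liver of that same genotype, and the last normal liver of a wild type mouse. Both alleles are therefore shared by the tumours and 1 of the normal libraries. The labels give no treatment, age, sex or strain, and do not say whether the tumours came from separate mice, so every p-value measures only the spread between these samples.

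Each integrin is a pair of an alpha and a beta subunit, and the pair sets the ligand. The β1 subunit joins many alphas into receptors for collagen, laminin and fibronectin, αv pairs with several betas to bind ligands with the tripeptide RGD, α6β4 anchors epithelia to laminin in hemidesmosomes, and β2 and β7 serve leukocytes. On the inner side, talin (Tln1) binds the beta tail, vinculin (Vcl) and zyxin (Zyx) link to actin, and focal adhesion kinase (Ptk2) and Src phosphorylate the adaptors paxillin (Pxn) and p130Cas (Bcar1). Normal hepatocytes are known chiefly for α1β1 and α5β1, whereas bile duct epithelium carries laminin receptors.

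Tumour 1 had the fewest gene counts, 11049931, and the normal table labelled wild type the most, 18448621. The normal tables were not independent: 56.8% of the 2632 genes averaging 1 to 5 counts were equal in both, against 22.0% expected of separate libraries and 13.1% in the tumours. They were therefore used as 1 normal library, their rounded mean, and the values called normal liver below are that mean. Liver identity was checked on markers. All 8 hepatocyte markers, such as Alb, lay below both normal tables in both tumours. Summed levels were 167 and 155 CPM (counts scaled to library size with TMM factors) against 177718 CPM. Most of the tumour sums was Hnf4a, at 156 and 107 CPM against 1281 CPM. The 6 bile duct markers summed to 978 and 541 CPM against 23.7 CPM, and 4 of them, Krt7 and Krt19 among these, lay above both normal tables in both tumours. The submitters' short descriptions attach the word Tcell to both tumour libraries, as Elf-Tcell and Smad-Tcell. They name the normal libraries Smad-Hepatocytes and mHepatocyte. These words differ from the tissue and genotype labels, which are followed here. In both tumours Cd3d, Cd3e, Cd3g, Cd2, Cd4 and Cd8a were at 0 counts. The T cell kinase gene Lck had 9 and 11 counts against 5 and 8. In bulk tissue, fewer cells of a type and less RNA per cell cannot be told apart.

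Against normal liver, 3 of the genes rose in the tumours: the collagen receptor subunit Itga2, the hemidesmosome subunit Itgb4 and the kinase gene Src. None fell. Of the 34 genes, 32 had enough counts for the test (edgeR's quasi-likelihood test, Benjamini-Hochberg adjusted p under 0.05 over 14468 genes), and Itgae and Itgb8 did not. Among all genes tested, 2.23% were called higher and 5.19% lower. Before adjustment, 8 of the 32 had a p under 0.05 on the higher side (12.5% of all genes) and 2 on the lower side (15.5%). DESeq2 called 8 higher (11.6% of all genes) and 2 lower (11.9%). The median log2 fold change was 0.93 over the 32 genes and 0.19 over all genes, 0.46 over the 23 integrin subunits and 1.54 over the 9 plaque genes. Counted by libraries alone, 19 of the 32 were above both normal tables in both tumours (41.7% of all genes) and 7 were below (36.7%). All 9 plaque genes were among the 19. Without scaling between libraries these counts were 21 and 6. The shares of all genes just given are on the TMM scale, so they do not apply to the counts without scaling.

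**Figure D1:**
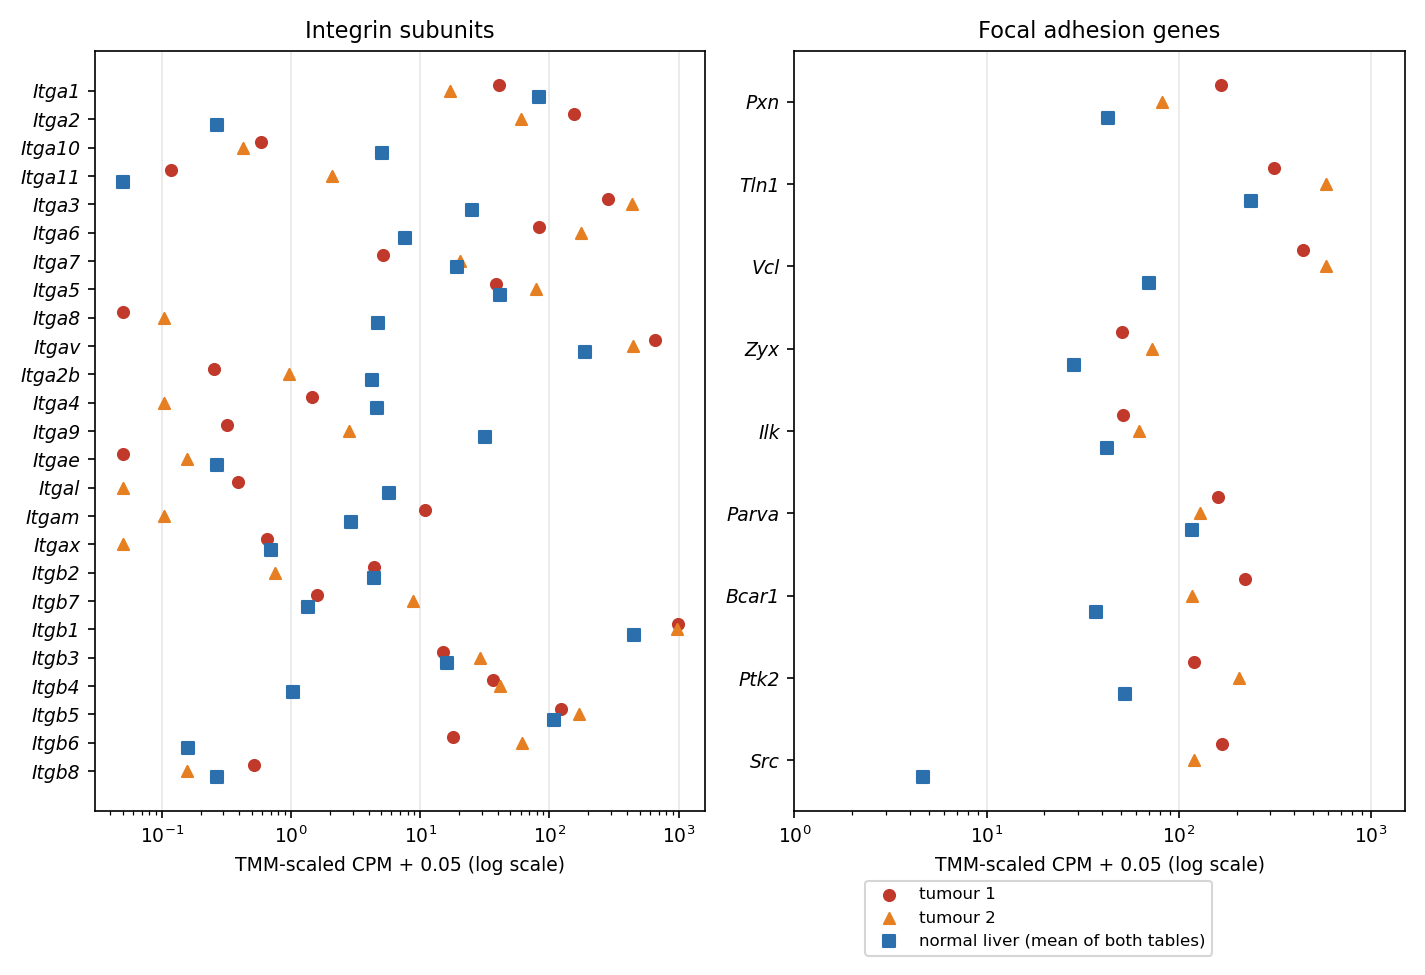
TMM-scaled CPM (log axis, 0.05 added so that zeros show) of 25 integrin subunits and 9 focal adhesion genes in tumour 1, tumour 2 and normal liver, 1 point per library, set slightly apart vertically for legibility. Itga2, Itgb4, Itgb6 and Src stand apart, from 0.110 to 4.60 CPM in normal liver and from 18.1 to 167 CPM in the tumours.

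These calls rest on 2 tumours and 1 normal library, which the fit assumes to vary as the tumours do. Without scaling between libraries, the median of all genes moved up by 1.37 on the log2 scale, so directions are given relative to the TMM scale. All calls then split into 635 higher and 472 lower, 57.4% higher, where the TMM scale gave 322 and 751, 30.0% higher.

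Among the collagen receptors, Itga2, the alpha subunit of α2β1, had 2321 and 1124 counts in tumours 1 and 2 and 3 and 2 in the normal tables labelled beta-2SP+/- ; SMAD3+/- and wild type. Tumour 1 was the higher of the tumours, and the groups were far apart. Scaled levels were 156 and 60.3 CPM against 0.219 CPM, a ratio of 469. Its exact 95% interval of 130 to 3878 covers counting error only. The normal library, as a rounded mean, held 2 counts, below the floor of 3 counts used here. The fitted log2 fold change was 8.89 (SE 1.31, edgeR adjusted p = 0.0378, and 3.4e-09 to 0.0428 over 9 alternatives). With tumour 2 alone the log2 ratio was 7.42, and with tumour 1 alone 8.71.

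The other collagen receptor subunits did not pass. Itga1, whose α1β1 is the collagen receptor of sinusoidal cells and hepatocytes, had 609 and 318 counts against 727 and 793, or 41.0 and 17.1 CPM against 83.3 CPM. Both tumours lay below normal liver, with a fitted log2 change of -1.52 (SE 0.72, adjusted p = 0.252) that was -0.16 without scaling. Itga10, a cartilage collagen receptor subunit, had 8 and 7 counts against 37 and 55. Of its 31-mers 30.5% occur in another annotated gene, so its counts are uncertain. Itga11, the collagen receptor subunit of fibroblasts, had 1 and 38 counts and 0 in both normal tables, so that tumour 2 held nearly all of its counts. In the same libraries the 9 fibroblast and stellate markers summed to 4.78 CPM in tumour 1, 449 CPM in tumour 2 and 226 CPM in normal liver, with Lum and Lrat at 0 in both tumours and Reln at 0 in tumour 1. Most of the tumour 2 sum was Col1a1, Col3a1, Pdgfrb and Pdgfra, at 202, 118, 82.0 and 36.8 CPM. Normal liver had 1.53, 15.5, 4.93 and 5.48 CPM of these. Dcn and Reln went the other way, at 8.27 and 0.161 CPM in tumour 2 against 64.9 and 116 CPM. The markers therefore did not move together. The part of fibroblasts and stellate cells in the Itga11 counts was not tested.

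The sequence upstream of Itga2 is shown because it is 1 of the 2 genes called higher that had a promoter entry, the other being Src. The 250 bases before the RefSeq start lie at chr13:114932101-114932350 on the minus strand (GRCm38.p6, a later build than the mm9 named for the counts). For Src they lie at chr2:157424043-157424292 on the plus strand. Capitals mark the GC box, searched as GGGCGG on both strands.
Itga2: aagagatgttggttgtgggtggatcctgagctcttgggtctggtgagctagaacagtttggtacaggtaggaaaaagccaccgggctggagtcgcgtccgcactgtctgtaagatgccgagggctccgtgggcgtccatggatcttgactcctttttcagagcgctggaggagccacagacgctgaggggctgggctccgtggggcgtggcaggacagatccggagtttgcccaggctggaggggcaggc
Src: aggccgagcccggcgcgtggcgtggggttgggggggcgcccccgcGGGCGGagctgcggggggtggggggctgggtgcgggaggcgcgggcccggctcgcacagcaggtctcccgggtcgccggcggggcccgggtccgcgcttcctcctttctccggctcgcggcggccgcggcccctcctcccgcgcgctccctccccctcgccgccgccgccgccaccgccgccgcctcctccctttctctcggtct
The Itga2 window was 60.8% G and C and held no GC box, and the Src window was 82.8% and held 1. Neither held the AP-1 letters TGANTCA or the TEAD letters GGAATG. Of the 34 genes, 24 had entries, 28 windows in all, with a median of 61.6% G and C against 52.4% over all 32851 windows. The GC box was in 13 of the 28 windows and in 32.7% of all windows, TGANTCA in 2 (Itgax and Zyx) and 6.75%, and GGAATG in 3 (Itga10, Itgb1 and Vcl) and 12.6%. Each motif was searched on its own on both strands, whether or not it overlapped another, and a match is a description of the window.

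Among the laminin receptors, Itgb4, the beta subunit of α6β4, rose, and the tumours were close to each other. It had 547 and 768 counts against 9 in each normal table, and 36.9 and 41.2 CPM against 0.986 CPM. The fitted change was 39.2-fold (fitted log2 change 5.29, SE 0.81, edgeR adjusted p = 0.0397, and 2.7e-06 to 0.0435 over 9 alternatives). Its partner Itga6, which also pairs with β1, had 1229 and 3248 counts against 63 and 75. Levels were 82.8 and 174 CPM against 7.56 CPM, both tumours well above normal liver and tumour 2 the higher (fitted log2 change 4.09, SE 0.87, adjusted p = 0.0709).

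Itga3, the alpha subunit of the epithelial laminin receptor α3β1, had 4233 and 8134 counts against 222 and 240. This was 285 and 437 CPM against 25.3 CPM, with no overlap between tumours and normal liver, and a log2 fold change of 3.83 (SE 0.77, adjusted p = 0.0634). Neither Itga3 nor Itga6 passed the threshold, and each did in 4 of the 9 alternatives. Bile duct markers stood higher in the same libraries, except that Epcam had 356 and 4 counts against 46 and 48 and Cftr 466 and 7 against 15 and 16, so both were low in tumour 2. The part of bile duct-like cells in the levels of Itga2, Itga3, Itga6, Itgb4 and Itgb6 was not tested. Itga7, a laminin receptor subunit best known from muscle, had 76 and 379 counts against 159 and 195. At 5.12 and 20.3 CPM against 19.4 CPM the tumours lay on both sides of normal liver. Its log2 fold change of -0.61 (SE 1.02, adjusted p = 0.726) became 0.78 without scaling.

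**Figure D2:**
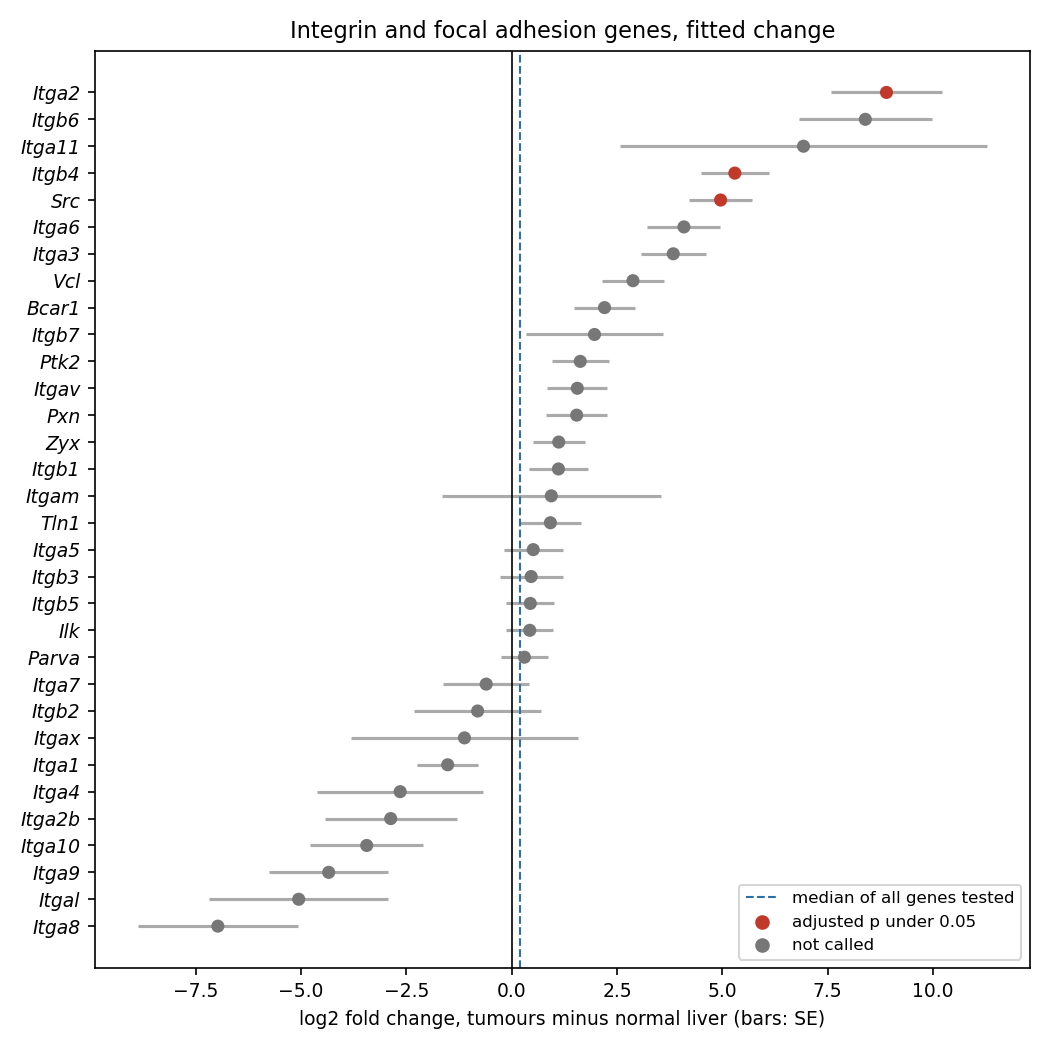
Fitted log2 fold change (tumours minus normal liver, x axis, bars showing the SE) of the 32 integrin and focal adhesion genes tested, with genes past the adjusted p threshold in red. Itga2, Itgb4 and Src are the red points at 8.89, 5.29 and 4.96, and the dashed line marks the median of all genes tested, 0.19.

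Among the RGD receptors, Itgav, the αv subunit that binds vitronectin and latent TGF-beta, had 9839 and 8239 counts against 1668 and 1760. It stood at 663 and 442 CPM against 188 CPM, higher in both tumours (fitted log2 change 1.56, SE 0.71, adjusted p = 0.239). Of its beta partners, Itgb6, an epithelial subunit that activates latent TGF-beta, was the most different. It had 268 and 1144 counts against 1 in each normal table, or 18.1 and 61.4 CPM against 0.110 CPM. The ratio was 385, with an exact 95% interval of 69.0 to 15210 for counting error, and the normal count of 1 was below the floor of 3. Both tumours were far above normal liver and tumour 2 was the higher, and the gene narrowly missed the threshold (fitted log2 change 8.39, SE 1.58, edgeR adjusted p = 0.0562). It passed in 6 of the 9 alternatives, whose adjusted p ranged from 4.0e-05 to 0.0623.

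Itgb5, the widely expressed vitronectin receptor beta, had 1832 and 3161 counts against 932 and 1038. Its levels of 123 and 170 CPM against 108 CPM gave a log2 fold change of 0.44 (SE 0.57, adjusted p = 0.647). Itgb3, the beta of αvβ3 and of the platelet receptor, had 221 and 543 counts against 142 and 150. Tumour 1, at 14.9 CPM, lay just below the 16.003 CPM of normal liver and tumour 2, at 29.1 CPM, above it. Itgb8, another partner of αv, had 7 and 2 counts against 2 and 2, and was not tested.

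The fibronectin receptor subunit Itga5 had 575 and 1471 counts against 342 and 412. At 38.7 and 79.0 CPM against 41.3 CPM, tumour 1 was just below normal liver and tumour 2 above it (fitted log2 change 0.51, SE 0.70, adjusted p = 0.663). Itga8, the RGD receptor subunit of stellate cells and smooth muscle, had 0 and 1 counts against 40 and 46 (edgeR adjusted p = 0.110). Itga2b, the platelet subunit αIIb, had 3 and 17 counts against 29 and 48. Both tumours were below both normal tables for these genes, at normal levels of no more than 4.71 CPM.

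Itga9, whose α9β1 binds tenascin, osteopontin and VCAM1, stood lower in both tumours. It had 4 and 52 counts against 276 and 298, or 0.269 and 2.79 CPM against 31.5 CPM, and tumour 1 was the lower (fitted log2 change -4.34, SE 1.41, adjusted p = 0.146). Itga4, of leukocytes, had 21 and 1 counts against 36 and 48. Endothelial markers stood lower beside these subunits: all 7 lay below both normal tables in both tumours, summing to 0.674 and 1.40 CPM against 285 CPM, with Cdh5, Tek and Lyve1 at 0 in tumour 1. The part of these cells, or of the stellate cells above, in the levels of Itga1, Itga8 and Itga9 was not tested.

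The leukocyte integrins were low everywhere, with no level above 10.9 CPM. Itgam, the αM subunit of macrophages and neutrophils, had 162 counts in tumour 1 and 1 in tumour 2, against 23 and 30. Itgb2, its beta partner, had 64 and 13 against 37 and 42, and Itgax, of dendritic cells and macrophages, 9 and 0 against 6 and 6. Tumour 1 was therefore the higher tumour for all 3. Itgal, the αL subunit of lymphocytes, had 5 and 0 counts against 42 and 61. Itgb7, the mucosal lymphocyte beta, had 23 and 163 counts against 10 and 14, and was the leukocyte subunit that lay above both normal tables in both tumours. Its partner Itgae, which binds E-cadherin, had at most 2 counts in any library.

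Summed leukocyte markers were also higher in tumour 1 than in tumour 2. The 12 leukocyte and T cell markers summed to 49.3 CPM in tumour 1, 2.95 CPM in tumour 2 and 76.7 CPM in normal liver, and 8 of them were at 0 in both tumours, Cd79a among these. Most of the tumour 1 sum was Lyz2, at 43.4 and 1.02 CPM against 21.9 CPM, of whose 31-mers 30.4% occur in another gene. Ptprc, the common leukocyte antigen, stood at 2.36 and 0.107 CPM against 7.78 CPM, and Csf1r, with 12.8% shared 31-mers, at 2.96 and 1.23 CPM against 39.2 CPM, both below normal liver, and Lck was nearly equal in the tumours. The 6 Kupffer markers summed to 14.4 and 0.0537 CPM against 121 CPM, with Clec4f, Vsig4, Timd4 and Cd5l at 0 in both tumours. The tumour 1 sum was Marco, at 8.15 CPM against 1.64 CPM, and Emr1, at 6.27 CPM against 12.6 CPM. Marco was thus above normal liver in tumour 1 and Emr1 below it. In tumour 2 they had 1 and 0 counts. The 6 platelet markers summed to 7.28 and 1.40 CPM against 1.97 CPM. Most of the tumour 1 sum was Pf4, at 6.67 and 0.215 CPM against 0.438 CPM. Most of the tumour 2 sum was Gp1bb, at 0.912 CPM, of whose 31-mers 90.7% occur in another gene. Gp9 and Gp1ba were at 0 in both tumours. The part of leukocytes, Kupffer cells or platelets in the Itgam, Itgb2 and Itgax values was not tested. Of the Itgam 31-mers 72.8% occur in another gene, nearly all in the predicted gene Gm49368, and 12.8% of the Itgax 31-mers occur in the related subunit gene Itgad, so these counts are uncertain.

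Itgb1, the beta subunit common to most matrix receptors, had the highest level per length of the 34 genes in each library. It had 14579 and 17968 counts against 4021 and 4214. The tumours were nearly equal at 982 and 964 CPM against 451 CPM, so they did not overlap with normal liver, and the log2 fold change of 1.11 (SE 0.70, adjusted p = 0.362) did not pass.

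Of the plaque kinases, Src, a tyrosine kinase that acts with focal adhesion kinase at new adhesions, rose. It had 2477 and 2226 counts against 39 and 45, or 167 and 119 CPM against 4.60 CPM, and the tumours were close to each other. The change was large against its error (fitted log2 change 4.96, SE 0.75, edgeR adjusted p = 0.0388, and 3.3e-08 to 0.0416 over 9 alternatives). Ptk2, the focal adhesion kinase gene, had 1775 and 3837 counts against 445 and 517. Its levels of 120 and 206 CPM against 52.7 CPM were higher in both tumours, with a log2 fold change of 1.63 (SE 0.67, adjusted p = 0.208).

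Of the adaptors, Vcl and Bcar1 stood furthest from normal liver. Vcl had 6540 and 10931 counts against 604 and 673, or 441 and 587 CPM against 69.9 CPM (fitted log2 change 2.88, SE 0.73, adjusted p = 0.0953). Of its 31-mers 23.5% occur in the gene Ap3m1. Bcar1 had 3299 and 2176 counts against 323 and 348, or 222 and 117 CPM against 36.8 CPM, with tumour 1 the higher (fitted log2 change 2.20, SE 0.73, adjusted p = 0.151). Pxn, which docks onto focal adhesion kinase, had 2473 and 1519 counts against 371 and 407, and 167 and 81.5 CPM against 42.6 CPM.

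Tln1 and Zyx were nearer to normal liver. Tln1 had 4662 and 10908 counts against 2051 and 2292, or 314 and 585 CPM against 238 CPM (fitted log2 change 0.92, SE 0.74, adjusted p = 0.456). Zyx had 749 and 1352 counts against 230 and 288, or 50.5 and 72.6 CPM against 28.4 CPM. Both genes were above normal liver in each tumour without passing the test.

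Integrin-linked kinase (Ilk) and parvin (Parva) form a complex behind β1 and differed least among the plaque genes. Parva had 2371 and 2400 counts against 1043 and 1094, or 160 and 129 CPM against 117 CPM (fitted log2 change 0.30, SE 0.55, adjusted p = 0.749). Ilk had 763 and 1157 counts against 264 and 506, or 51.4 and 62.1 CPM against 42.2 CPM. Ilk was also the gene of the set that differed most between the normal tables among those with 20 CPM or more, with a log2 ratio of -0.74. Of its 31-mers 73.2% occur in another gene, most of them in Taf10, so its counts are uncertain.

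Levels of different subunits were compared as CPM per kilobase of merged exons (GENCODE M21 lengths). In normal liver, Itgav led the alphas at 26.6, followed by Itga5 at 9.43, Itga1 at 7.60, Itga3 at 4.82, Itga7 at 4.68 and Itga9 at 4.40 CPM per kb. In tumour 1 the order was Itgav at 94.0, Itga3 at 54.3, Itga2 at 22.0 and Itga6 at 19.0 CPM per kb. In tumour 2 it was Itga3 at 83.1, Itgav at 62.7, Itga6 at 40.0 and Itga5 at 18.0 CPM per kb. Itgav and Itga3, and Itga2 and Itga6, thus changed places between the tumours, so neither pair has an order beyond the spread. Itga2 was the 3rd alpha in tumour 1 and the 5th in tumour 2, and stood at 0.0308 CPM per kb in normal liver.

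Among the betas, Itgb1 led and Itgb5 followed in each library, at 257 and 36.4 CPM per kb in tumour 1, 253 and 50.03 in tumour 2, and 118 and 31.8 in normal liver. The next places differed. In normal liver they went to Itgb3 at 2.77 and Itgb2 at 1.48 CPM per kb. In tumour 1 they went to Itgb4 at 5.77 and Itgb6 at 2.98 CPM per kb, and in tumour 2 to Itgb6 at 10.1 and Itgb4 at 6.46 CPM per kb, an order that again did not hold between the tumours.

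**Figure D3:**
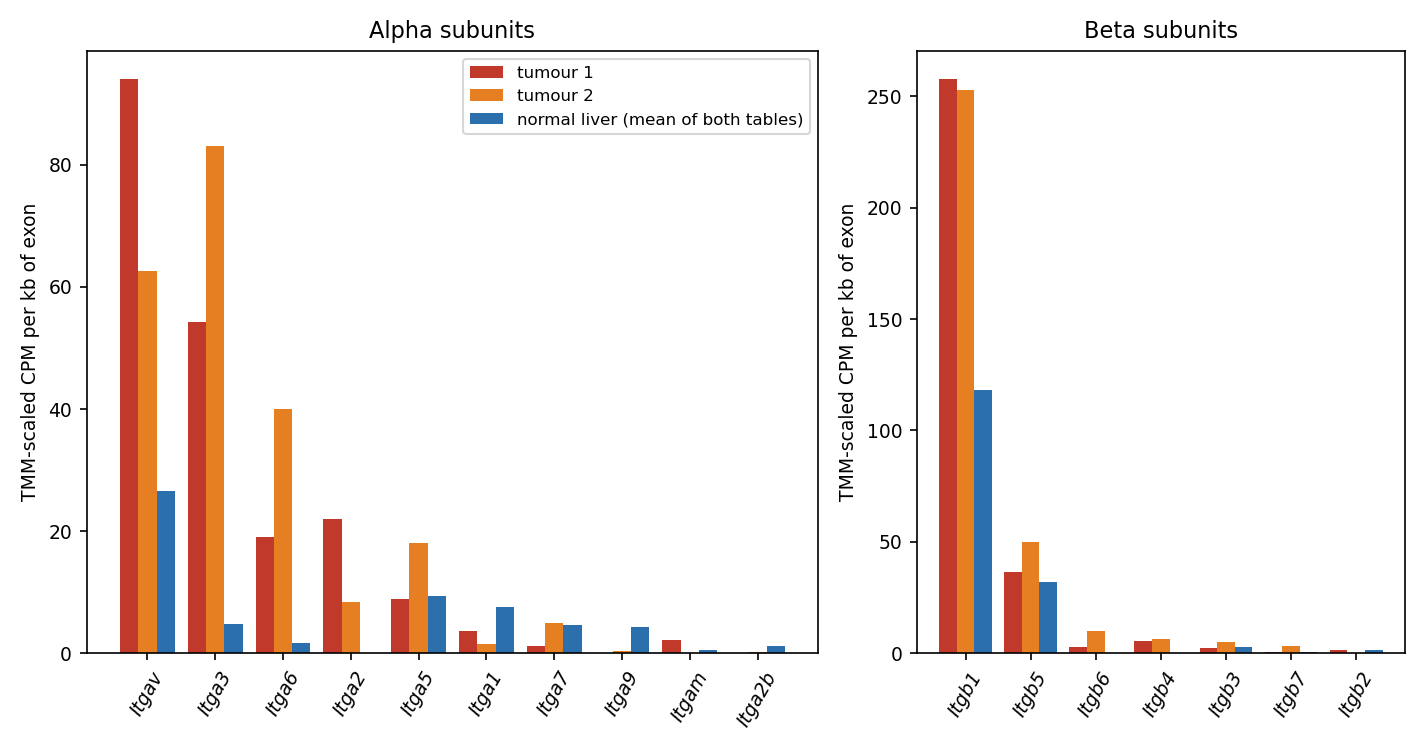
TMM-scaled CPM per kilobase of merged exons for alpha and beta subunits with at least 1 CPM per kb in a library, as bars from 0 for tumour 1, tumour 2 and normal liver, 1 library each. Itgav, Itga3, Itga6 and Itga2 fill the left of the alpha panel in the tumours, whereas normal liver shows Itgav, Itga5 and Itga1, and Itgb1 is the tallest beta bar at 257, 253 and 118.

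The tumours were also set against each other. Of 23 with at least 10 CPM in either tumour, Itgb7 was over 4-fold higher in tumour 2 (7.26% of all genes) and Itgam over 4-fold higher in tumour 1 (3.52%), with log2 ratios of tumour 2 to tumour 1 of 2.41 and -5.99. Both counts of 1 were near the share of all genes, and from 1 CPM they were 3 and 3. With a single library on each side, these ratios cannot be set against replicates. Among the 23, the next ratios were 1.96 for Itga7 and 1.76 for Itgb6, and on the other side -1.37 for Itga2 and -1.26 for Itga1. Itgb1, at -0.03, and Itgb4, at 0.16, were the most even. Below 10 CPM in both tumours, Itga11 at 3.53, Itga9 at 2.90, Itga4 at -3.15 and Itgb2 at -2.44 were also past 4-fold, from few counts. So was Itgax at -2.60, which was below 1 CPM in each tumour.

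Each tumour was also set against normal liver on its own, again without a test and with the same normal library. In tumour 1, 9 of 22 genes with at least 10 CPM were over 4-fold above normal liver (15.2% of all genes): Itga2, Itga3, Itga6, Itgb4, Itgb6, Pxn, Vcl, Src and Bcar1. Only Itga9 was over 4-fold below it (18.1%). In tumour 2, 8 of 22 were above (19.1%): Itga2, Itga3, Itga6, Itgb4, Itgb6, Ptk2, Vcl and Src. Itga1 and Itga9 were below (19.0%).

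**Figure D4:**
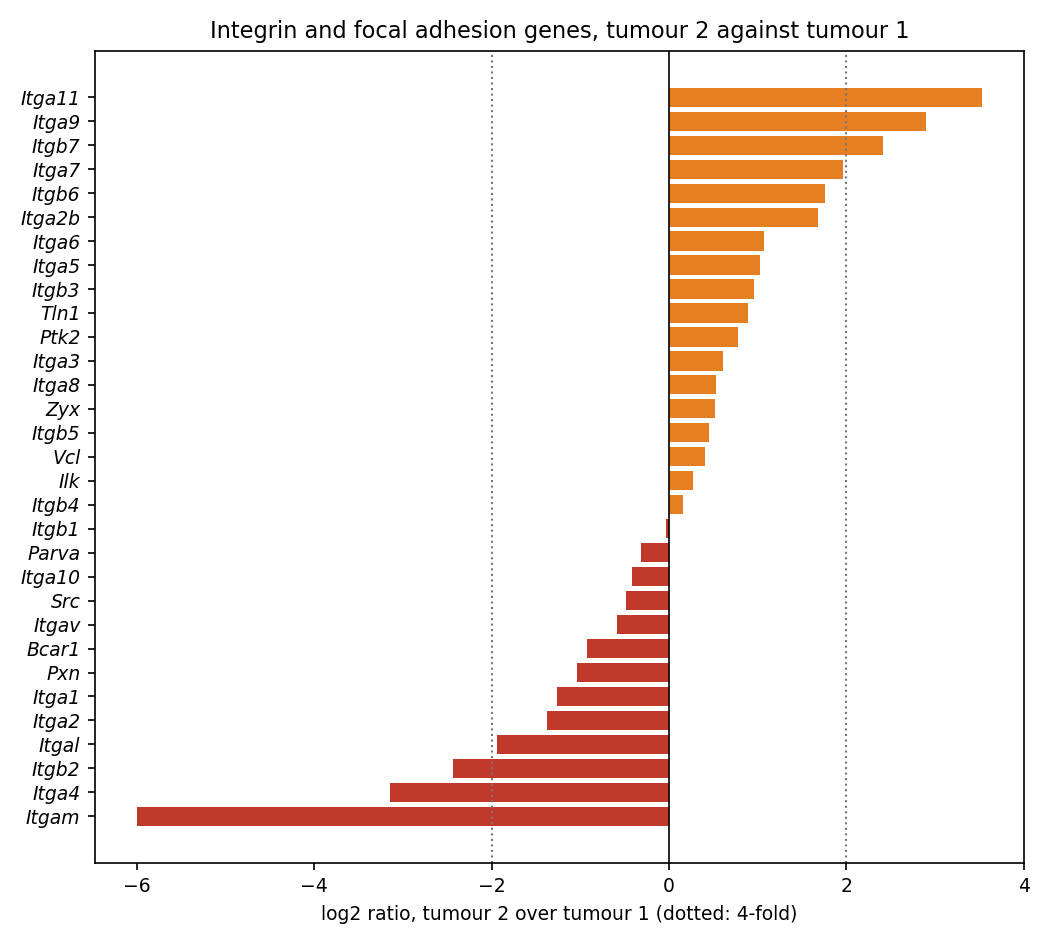
Log2 ratio of tumour 2 to tumour 1 (x axis, prior count of 2, dotted lines at 4-fold) for the 31 integrin and focal adhesion genes reaching 1 CPM in a library. Itgb1 and Itgb4 lie near 0, and Itgam, at -5.99, has the longest bar.

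The normal tables ask what the heterozygous genotype changes in these genes without a tumour. None of the 16 genes with at least 10 CPM differed over 2-fold (4.56% of all genes). In unscaled counts, the table labelled wild type was equal or higher in 33 of the 34 genes, and 5 genes had the same count in both. Itga2 was the exception, with 2 counts against 3. That table also had more gene counts, 18448621 against 15950426. Of the 2632 genes averaging 1 to 5 counts, it was the lower in only 3.53%, so the pattern was not particular to these genes. Since the tables share counts, this comparison cannot tell genotype apart from the sharing.

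Other genes of the adhesion plaque gave 1 call among 41 tested, about the 2.23% of all genes called higher. Enah, an actin regulator of adhesions and cell edges, had 2889 and 1786 counts against 2 and 3, or 195 and 95.9 CPM against 0.219 CPM. The ratio was 637, with an exact 95% interval of 176 to 5262 for counting error (edgeR adjusted p = 0.0285). The normal library, as a rounded mean, held 2 counts of Enah, below the floor of 3. No gene of the list fell. Before adjustment, 11 had a p under 0.05 on the higher side (12.5% of all genes) and 2 on the lower side (15.5%). DESeq2 called 11 higher (11.6% of all genes) and 2 lower (11.9%). The median log2 fold change was 0.86. Of the abundant genes not called, the syndecan gene Sdc4 stood at 763 and 396 CPM against 2268 CPM and the zyxin relative Lpp at 512 and 286 CPM against 210 CPM.

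Regulators and membrane partners of integrins gave no call among 16 tested by edgeR. Before adjustment 4 had a p under 0.05 on the higher side (12.5% of all genes) and 1 on the lower side (15.5%). DESeq2 called 3 higher (11.6% of all genes) and 1 lower (11.9%). The median log2 fold change was 0.14. The tetraspanin gene Cd81 stood at 595 and 427 CPM against 454 CPM and Slc3a2, whose product CD98 binds beta tails, at 363 and 127 CPM against 100 CPM.

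Genes of integrin ligands gave 6 higher (2.23% of all genes) and 1 lower (5.19%) among 26 tested. The median log2 fold change was 3.70, beside 0.19 over all genes. Before adjustment, 14 had a p under 0.05 on the higher side (12.5% of all genes) and 2 on the lower side (15.5%). DESeq2 called 16 higher (11.6% of all genes) and 2 lower (11.9%). Lama5, of the basement membrane laminins bound by α3β1 and α6 integrins, rose from 9.10 CPM to 1117 and 851 CPM (fitted log2 change 6.76, SE 0.98, edgeR adjusted p = 0.0362). Lamb2 rose from 6.03 CPM to 503 and 273 CPM (6.01, SE 0.95, adjusted p = 0.0421).

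Other laminin chains are named after their values were seen. Lamb3, a beta chain of epithelial laminins, stood at 214 and 168 CPM against 14.5 CPM (fitted log2 change 3.72, SE 0.68, adjusted p = 0.0532). Lama3, an alpha chain of epithelial laminins, had 6 and 40 counts against 218 and 278, or 0.404 and 2.15 CPM against 27.2 CPM (fitted log2 change -4.39, SE 1.19, adjusted p = 0.109). Neither passed the test, and in both tumours Lama3 lay below normal liver and Lamb3 above it.

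Ligands of the RGD receptors moved both ways. Npnt, nephronectin, which α8β1 binds, had 293 and 921 counts and 0 in both normal tables, and was at least 105-fold higher against a floor of 3 counts in the normal library (adjusted p = 0.0397). That bound uses the mean of the tumours, and was 60.03-fold with tumour 1 alone and 150.3-fold with tumour 2 alone. Itga8 itself had 0 and 1 counts in the same tumours. Vtn, the plasma vitronectin made by hepatocytes and bound by αvβ3 and αvβ5, fell from 6167 CPM to 0.337 and 0.268 CPM, 5 counts in each tumour (fitted log2 change -14.28, SE 1.11, adjusted p = 0.0182). Spp1, osteopontin, and Mfge8, both αv ligands named after their values were seen, also rose, to 1526 and 1585 CPM from 28.5 CPM and to 302 and 182 CPM from 8.55 CPM. Of the Spp1 31-mers 12.5% occur in another gene, and the Mfge8 call was lost in 1 of 9 alternatives (adjusted p = 0.0508). Fibronectin, Fn1, stood at 2422 and 2213 CPM against 6400 CPM, and E-cadherin, Cdh1, the ligand of αEβ7, at 643 and 290 CPM against 54.8 CPM. Neither passed.

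**Figure D5:**
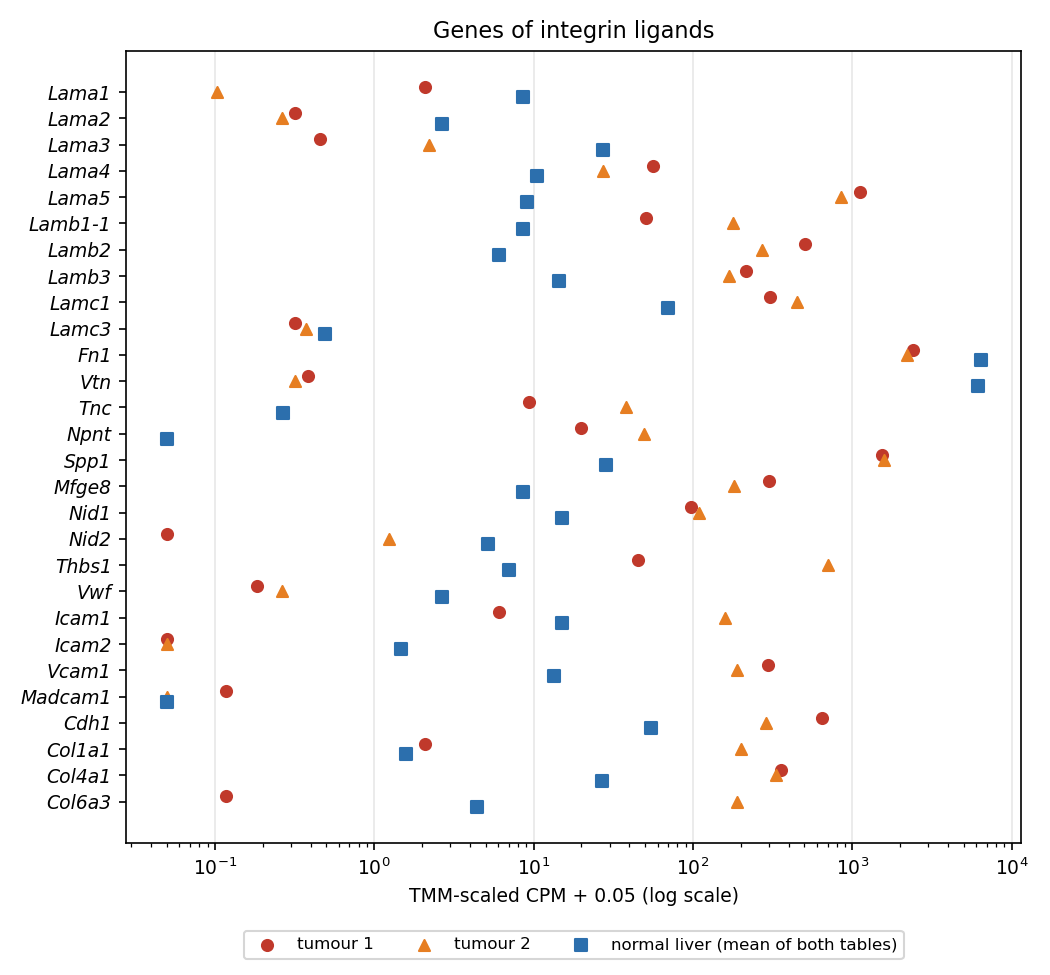
TMM-scaled CPM (log axis, 0.05 added) of 28 of the 29 genes of integrin ligands in tumour 1, tumour 2 and normal liver, 1 point per library, set slightly apart vertically for legibility. Lama5, at 1117 and 851 CPM, lies far right of normal liver, and Vtn, at 6167 CPM in normal liver, far left of it in both tumours.

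Hemidesmosome genes work with α6β4, and 7 of the 9 on the list were tested, with a median log2 fold change of 1.94. The cytolinker genes did not pass, with Plec1 at 1220 and 1886 CPM against 831 CPM and Dst at 1088 and 541 CPM against 556 CPM. Col17a1, the transmembrane collagen of hemidesmosomes, had 1 and 6 counts against 6 and 9 and was not tested.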

How the data were processed

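Each library has 1 deposited table of whole-number read counts by gene symbol, not normalized. FastQC, Trimmomatic, TopHat2 2.0.10, HTSeq, DESeq2 and mm9 are named, without role or order, in the submitters' processing notes; RNA was taken up in TRIZOL and made into TruSeq libraries, per the labels' protocols. Whether counting used strand is not given in the sources used here. In each table, the 5 lines that name no gene were left out; unassigned reads made up 13.6% to 31.5% of a table and non-unique alignments 30.7% to 51.5%.

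Tumours were compared with the rounded mean of the normal tables in edgeR 4.0.16 (R 4.3.3; TMM, filterByExpr with a minimum count of 10, glmQLFit, glmQLFTest). The fit has 1 residual degree of freedom, and SE is the absolute log2 fold change over the square root of F. Ratios of 1 library to 1 used a prior count of 2. The floor is 3 counts a library. Alternatives, listed in the closing section, included DESeq2 1.42.0. Shared sequence is the percentage of a gene's 31-mers (1 in 16 sampled, GENCODE M21) found in another gene; over 10% is called uncertain. Promoter windows are RefSeq's.

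All genes of the set are accounted for. Values per library are given for called genes, for others reaching 20 CPM and for some below; of each other list, up to 4 called genes per direction and the 2 most abundant not called. The genes, lists and rules were chosen with earlier results of these data known. Without molecular identifiers, intervals cover counting error only. Some genes counted in the list totals are not reported here.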

Additional observations from a re-analysis of the deposited data

How the results depend on the processing

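The calls of Itga2, Itgb4 and Src held in all 9 alternatives with a test. With the normal tables as separate libraries, 13 genes of the set were called higher and 4 lower, beside 3058 and 3157 of all genes; those tables share counts. DESeq2 gave 8 and 2 (1641 and 1727 of all genes), no filter on low counts 6 higher (903 and 1383) and no scaling 6 higher (635 and 472), against 322 and 751 of all genes as reported. Among other plaque genes, higher calls were 13, 11, 8 and 8 in that order, and 2 with upper quartile scaling, DESeq2 size factors in edgeR or the wild type table alone; lower calls were 6 with separate tables and 2 by DESeq2. Among regulators, higher calls were 5, 3, 2 and 2, and 1 with upper quartile scaling or DESeq2 size factors; lower calls were 1 with separate tables and 1 by DESeq2. Among ligands, higher calls were 15, 16, 12 and 10, and lower calls 6 with separate tables, 2 by DESeq2 and 2 without a filter. Hemidesmosome genes had 3 higher with separate tables and 2 by DESeq2, without a filter, without scaling, with either other scaling or with the wild type table alone, and 1 lower with separate tables, by DESeq2 or without a filter. As shares of all genes tested, higher and lower calls were 22.6% and 23.4% with separate tables and 11.6% and 11.9% by DESeq2. They were 4.88% and 7.47% without a filter and 4.39% and 3.26% without scaling. With upper quartile scaling they were 2.66% and 4.95%, and with DESeq2 size factors 2.86% and 6.48%. With the wild type table alone they were 2.90% and 5.77%. The cause of these changes in calls was not tested. Without scaling, the log2 fold changes of Itga7, Itgax and Itgb2 turned to 0.78, 0.20 and 0.54, from -0.61, -1.12 and -0.81. Upper quartile scaling moved the median of all genes by 0.23. Genes over 4-fold higher in tumour 2 than in tumour 1 numbered 2 without scaling and 3 from 1 CPM, and those higher in tumour 1 numbered 3 from 1 CPM. Leaving out a tumour leaves no residual degree of freedom: log2 ratios with tumour 2 or tumour 1 alone were 5.24 and 5.06 for Itgb4 and 4.71 and 5.19 for Src, and for Itgb6 6.08 with tumour 1 alone. No paired analysis was possible because the labels link no tumour to a normal library.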

Other observations

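Several more ligand genes are named after their values were seen. Of these, Col1a1, Col6a3, Thbs1 and Icam1 stood far apart between the tumours, and Vcam1 did not. The collagen gene Col1a1 stood at 2.02 CPM in tumour 1 and 202 CPM in tumour 2 against 1.53 CPM in normal liver, Col6a3 at 0.0674 and 188 CPM against 4.38 CPM, and thrombospondin Thbs1 at 45.3 and 706 CPM against 7.02 CPM. Icam1, the ligand of leukocyte β2 integrins, stood at 5.996 and 159 CPM against 15.1 CPM, and 17.5% of its 31-mers occur in another gene. Vcam1, bound by α4 and α9 integrins, stood at 297 and 190 CPM against 13.5 CPM, in libraries where Itga4 had 21 and 1 counts and Itga9 4 and 52. None of these genes passed the test.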
